A study of Mus musculus with 2 samples.

Results

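The 35 genes described here encode small GTPases that carry a prenyl lipid, the enzymes that attach and process that lipid, and regulators of the GTPase cycle. They were taken by gene symbol from the 27998 genes of the count tables, and all 35 were found. The set held 21 GTPases (7 of the Ras family and 6 of the Rab family among them), 4 regulators and 10 enzymes.

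Prenylation adds a farnesyl or geranylgeranyl group, both products of the mevalonate pathway, to a cysteine near the carboxyl end of a protein, and the lipid lets the protein sit on membranes. Farnesyltransferase (Fnta with Fntb) and geranylgeranyl transferase I (Fnta with Pggt1b) share a subunit, and Rab geranylgeranyl transferase (Rabggta with Rabggtb) acts on Rab proteins brought to it by the escort proteins Chm and Chml. Rce1 and Zmpste24 are proteases and Icmt a methyltransferase of the processed carboxyl end. In blood leukocytes Rhoa, Rac and Cdc42 proteins steer the actin skeleton and migration, Rap proteins control integrin adhesion, and Rab proteins direct vesicle traffic.

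Mononuclear blood cells of female C57Bl/6 mice aged 10 weeks were compared between the compound genotype MvkV377I/del91, called mutant below, and wildtype (Mvk+/+). Mvk encodes mevalonate kinase, which acts upstream of both prenyl lipids, and the series models mevalonate kinase deficiency. Blood of 3 mice per genotype was pooled, and living cells without the erythroid antigen Ter119 were taken by flow sorting and profiled with 10x Chromium 3' v2 reagents at a target of 2000 cells, giving 1 library per genotype. With 1 replicate per genotype, genotype, pool and library cannot be told apart, no test was possible, and every interval below is a 95% interval that covers counting error only. Paired values are given in the order mutant, wildtype throughout.

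The libraries held 14513059 and 15385199 UMIs (unique molecular identifiers, 1 per captured RNA molecule), of which 65.0% and 77.5% lay in 4190 and 5225 called cells. The 2 sets of cells shared 28 barcodes, where 29.7 were expected for independent sets. Median depth was 1968 and 2036 UMIs per cell. Cells were assigned by marker UMIs to T-like (2258 and 2768 cells), B-like (1256 and 1100), NK-like (183 and 846) and monocyte-like (116 and 121) types, and 9.0% and 7.46% of cells had no type. Markers of each type were found at 3809 and 3767 CPM in T-like, 8261 and 7897 CPM in B-like, 9430.0 and 9334 in monocyte-like and 5647 and 7489 CPM in NK-like cells, where CPM is the UMIs of a gene in 1000000 UMIs of the same cells. Red cell markers, despite the Ter119 gate, stood at 9840.1 and 791 CPM in T-like, 11758 and 289 CPM in B-like, 6003 and 311 in monocyte-like and 5499 and 273 CPM in NK-like cells. Their part in any difference between the libraries was not tested. The monocyte-like class also held platelet markers at 1178 and 466 CPM, neutrophil markers at 463 and 1855 CPM and dendritic cell markers at 609 and 426 CPM, with every marker of the 3 lists detected in both libraries, so results on it are also given without the cells that carried 3 or more such UMIs. That left 72 of 116 mutant and 87 of 121 wildtype cells. Platelet markers were uneven between the libraries outside this class too. Mutant T-like cells held them at 126 CPM, where the wildtype library had 16.2 CPM. For the B-like type the mutant level was 75.4 CPM against 26.5 CPM, and for the NK-like type 121 against 93.6 CPM.

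Transcripts of Mvk itself were rare, with 5.72 and 6.53 CPM in T-like cells from 29 and 44 UMIs. A 3' tag count does not read either allele and checks no label here.

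The sequences around the start sites of Rhoc, Rap2b and Rhoh are shown because Rhoc and Rap2b stood out in NK-like cells and Rhoh was low there, as described below. They come from RefSeq on GRCm38.p6, the assembly behind mm10, and run from 250 bases before to 50 bases after the RefSeq start, which lies inside the longer gene of the mm10 annotation in each case. All 3 are on the plus strand. Capitals mark GC boxes, searched as GGGCGG on both strands, so that CCGCCC is a match too.
Rhoc, chr3:104788784-104789083: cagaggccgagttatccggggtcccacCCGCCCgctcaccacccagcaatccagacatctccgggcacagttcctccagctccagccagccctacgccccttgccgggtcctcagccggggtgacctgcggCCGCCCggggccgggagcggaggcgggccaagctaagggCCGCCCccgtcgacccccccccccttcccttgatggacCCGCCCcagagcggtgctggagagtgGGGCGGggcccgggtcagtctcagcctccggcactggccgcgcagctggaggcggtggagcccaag
Rap2b, chr3:61364257-61364556: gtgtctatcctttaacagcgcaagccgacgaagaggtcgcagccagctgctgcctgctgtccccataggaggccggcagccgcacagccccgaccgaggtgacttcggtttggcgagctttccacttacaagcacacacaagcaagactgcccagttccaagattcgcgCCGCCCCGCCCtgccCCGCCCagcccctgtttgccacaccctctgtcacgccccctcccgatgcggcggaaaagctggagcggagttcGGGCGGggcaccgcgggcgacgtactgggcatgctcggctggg
Rhoh, chr5:65863334-65863633: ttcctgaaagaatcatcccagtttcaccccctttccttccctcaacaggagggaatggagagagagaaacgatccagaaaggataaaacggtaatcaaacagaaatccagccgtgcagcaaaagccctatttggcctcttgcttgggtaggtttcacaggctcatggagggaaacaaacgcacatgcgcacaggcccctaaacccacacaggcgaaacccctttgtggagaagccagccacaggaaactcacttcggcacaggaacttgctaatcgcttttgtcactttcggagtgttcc
The Rhoc window, 74% G and C, held 5 GC boxes, and the Rap2b window, 66.3% G and C, held 4, of which a pair overlap. The Rhoh window, 50.3% G and C, held 0. A GC box was present in 35.7% of 32851 promoter windows of the same length. The cores AGGTGT (T-box, 13.7% of windows), TGTGGT (Runx, 16.8%) and CCGGAA (ETS, 14.9%), also searched on both strands, had no match in these 3 windows.

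The most abundant GTPase transcript of the lymphocyte types was Rac2, the Rac protein of blood cells that activates the phagocyte oxidase and actin assembly. It was found at 1217 and 1254 CPM in T-like, 1133 and 1049.7 CPM in B-like and 1637 and 1609.6 CPM in NK-like cells, but at 679.9 and 779 CPM in monocyte-like cells. Its order over the types was the same in both libraries, with the NK-like level 1.35 (1.24 to 1.46) and 1.28 (1.23 to 1.34) times the T-like one. Each UMI counts 1 molecule whatever its length, so levels of different genes are set side by side here without dividing by length.

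Monocyte-like cells had another leading transcript. Rap1b, which activates integrins, stood at 1084 and 1061 CPM there, against 852 and 927 CPM in NK-like, 383 and 443 CPM in B-like and 432 and 423 CPM in T-like cells. Without cells carrying neutrophil, platelet or dendritic markers, Rap1b was still first of the 21 GTPases, at 1351 and 1398 CPM, while Rac2 was at 663 and 678 CPM.

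Cdc42, which drives filopodia and cell polarity, was the second most abundant GTPase in every type of both libraries. Its level was 998 and 1047 CPM in NK-like, 973 and 929 CPM in monocyte-like, 651 and 648 CPM in B-like and 505 and 452 CPM in T-like cells. The NK-like and monocyte-like levels did not differ beyond counting error, with ratios of 1.03 (0.89 to 1.18) and 1.13 (1.0 to 1.27). Its second rank was lost in monocyte-like cells without neutrophil, platelet or dendritic markers. There Cdc42 was at 1062 and 960 CPM, below Rhoa at 1178 and 1045 CPM. Rhoa, the activator of contractile fibres, was lowest in T-like cells at 367 and 322 CPM, followed by B-like at 587 and 489.9, NK-like at 604 and 572 and monocyte-like cells at 887 and 897 CPM. In the mutant library the NK-like and B-like levels of Rhoa lay within counting error, at a ratio of 1.03 (0.896 to 1.18).

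A few GTPases supplied most of the pool. Rac2, Cdc42 and Rap1b together made up 54.7% and 55.4% of GTPase UMIs in T-like and 56% and 57% in NK-like cells. In B-like cells Rac2, Cdc42 and Rhoa made up 53.3% and 50.9%, and in monocyte-like cells Rap1b, Cdc42 and Rhoa made up 45.5% and 44%. By family, Ras transcripts, to which Rap belongs, took a share of the pool from 21.8% and 22.4% in T-like up to 35.6% and 34.9% in monocyte-like cells. Rab transcripts took a smaller share in each type, from 11.2% and 11.5% in T-like up to 15% and 14.1% in monocyte-like cells.

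**Figure D1:**
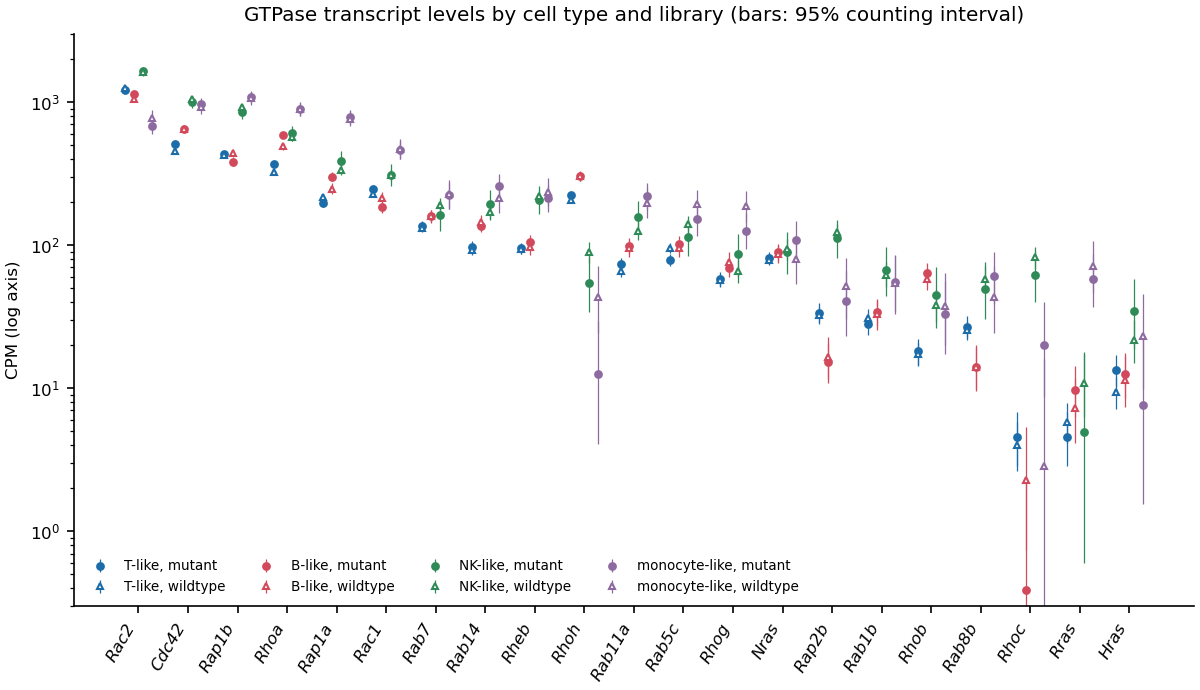
Level of each of the 21 GTPases (CPM, log axis) in the 4 cell types, with filled circles for the mutant library, open triangles for the wildtype library and bars for the 95% counting interval. Circle and triangle of a type lie close together for the abundant genes, while Rhoc, Rap2b, Rras and Rhoh differ most between types.

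A gene was called leading in a type when its level was at least 2-fold above each other type in both libraries, with at least 50 UMIs in that type over both. In NK-like cells 2 of 26 measured members met this, against 4.56% of 4586 measured genes. Rhoc, a close relative of Rhoa known from cell motility, stood at 61.9 and 82.1 CPM in NK-like cells, 4.54 and 4.01 CPM in T-like, 0.391 and 2.28 CPM in B-like and 20.2 and 2.88 CPM in monocyte-like cells. B-like cells gave 1 and 5 UMIs of it. Rap2b, a relative of the Rap1 proteins, was at 111 and 123 CPM in NK-like cells and at 40.4 and 51.8 CPM in monocyte-like, 15.2 and 16.5 CPM in B-like and 33.8 and 32.5 CPM in T-like cells. The nearest type, monocyte-like, was below by ratios of 2.76 (1.53 to 5.22) and 2.37 (1.46 to 4.09), which rest on 16 and 18 monocyte-like UMIs. Without cells carrying a platelet marker UMI, Rhoc alone led, and under a stricter marker rule 0 members did.

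In monocyte-like cells 1 of 17 measured members was leading, against 15.1% of 2159 measured genes, so that the members' count was below the background share. This was Rap1a, the second Rap1 gene, at 791 and 765 CPM in monocyte-like, 389 and 337 CPM in NK-like, 300.0 and 249 CPM in B-like and 198 and 217 CPM in T-like cells. Its distance to the NK-like level was close to the 2-fold limit, at 2.03 (1.67 to 2.48) and 2.27 (1.95 to 2.64), and it no longer met the rule with free RNA subtracted, without doublet scores above 0.2, or with totals lacking ribosomal, mitochondrial and haemoglobin genes. Among the monocyte-like cells without other markers Rap1a stood at 999 and 974 CPM. Rras, a Ras relative that promotes adhesion, had 58.1 and 71.9 CPM in monocyte-like cells and no more than 10.8 CPM in any other type, but its 48 UMIs were just under the minimum.

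In T-like cells 1 of 33 measured members led, against 2.0% of 8389 measured genes, and in B-like cells 0 of 30 did, against 3.29% of 6808. The T-like one was the enzyme gene Fntb, described with the enzymes, which no longer led in cells thinned to 800 UMIs or without platelet or red cell RNA. Rhoh, a GTPase of blood cells that signals from the antigen receptor of T cells, was highest in B-like cells at 302 and 305 CPM, followed by T-like cells at 223 and 207 CPM. It was at 12.6 and 43.1 in monocyte-like and 54.5 and 89.7 CPM in NK-like cells. Free RNA held Rhoh at 185 and 241 CPM in barcodes of at most 20 UMIs, and free RNA was estimated at 19% and 20.1% of NK-like and 9.14% and 8.50% of monocyte-like UMIs. Rhob, a GTPase of endosomes that is induced early by stress, was also highest in B-like cells, at 64.1 and 58 CPM, and lowest in T-like cells, at 18.2 and 17.4 CPM.

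Counted over the family, 11 of 21 GTPases had their highest level in monocyte-like cells in both libraries, 5 in NK-like, 2 in B-like and 0 in T-like cells, and 3 differed between the libraries. T-like cells held the lowest level for 12. These counts include GTPases too rare to be measured, and only 13 of 21 were measured in monocyte-like cells. No share of all genes highest or lowest in a type stands beside them, so they have no background. In NK-like cells 18 of 19 measured GTPases were above the T-like level in both libraries, with Rhoh below, where 65.5% of measured genes were above. Against B-like cells 15 of 18 were above, with Rhob and Rhoh below, beside 56.3% of genes. In monocyte-like cells 12 of 13 were above the T-like level and 11 of 13 above the B-like level, with Rac2 below both, beside 62.1% and 58.9% of genes. Summed, the 21 GTPases took 3939.5 and 3846 CPM in T-like, 4452 and 4299.8 in B-like, 6468 and 6565 in monocyte-like and 6232 and 6291 CPM in NK-like cells. Per cell this was 8.84 and 9.36 UMIs for a T-like cell but 22.1 and 18.9 UMIs for a monocyte-like cell, whose median depth was 3077 and 2232 against 2119.5 and 2306.5 UMIs in T-like cells.

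The farnesylated Ras members were less abundant than Rap1a and Rap1b. Rheb, the activator of the growth kinase mTORC1, stood at 212 and 236 CPM in monocyte-like and 208 and 219 CPM in NK-like cells, against 105 and 97.8 CPM in B-like and 95.3 and 94.1 CPM in T-like cells. Nras, a classical Ras protein of growth signalling, was flatter, at 81.3 and 79 CPM in T-like, 89 and 87.3 in B-like, 109 and 80.5 in monocyte-like and 89.2 and 93.6 CPM in NK-like cells. Hras stayed at or under 34.7 CPM in every type. Rac1, which drives lamellipodia, and Rhog, which acts upstream of Rac, were highest in monocyte-like cells, at 463 and 472 CPM and 126 and 187 CPM.

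Among the Rab GTPases, Rab7 of late endosomes was the most abundant in T-like and B-like cells. It ran from 136 and 132 CPM in T-like to 222 and 227 CPM in monocyte-like cells. Of the Rab proteins of recycling vesicles, Rab14 ran from 97.7 and 92.6 to 260.3 and 213 CPM and Rab11a from 73.4 and 65.9 to 219.9 and 198 CPM over the same types. Rab5c of early endosomes was at 152 and 193 CPM in monocyte-like and 79.2 and 95.9 CPM in T-like cells. Rab1b, which moves cargo from the endoplasmic reticulum to the Golgi, and Rab8b, of transport to the cell surface, stayed between 14.1 and 66.9 CPM over all types and libraries.

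The regulators of the cycle had other patterns. Arhgdib, a GDP dissociation inhibitor of blood cells that holds prenylated GTPases in the cytosol, had nearly even levels, at 1067 and 1061 CPM in T-like, 1063 and 1084 in B-like, 1003 and 920.2 in monocyte-like and 1020.5 and 1227 CPM in NK-like cells. Its relative Arhgdia was highest in NK-like cells, at 443 and 442 CPM, and lowest in T-like cells, at 256 and 251 CPM. Arhgap15, a Rac GTPase activating protein, ran the other way, from 246 and 249 CPM in T-like to 111 and 77.6 CPM in monocyte-like cells. Arhgef1, an exchange factor for RhoA, was also lowest in monocyte-like cells, at 185 and 224 CPM, where Rhoa was highest, and stood at 382 and 373 CPM in T-like cells.

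The enzymes were rare beside their substrates. Summed over the 10 genes they took 163 and 167 CPM in T-like, 196 and 173 in B-like, 106 and 178 in monocyte-like and 186 and 215 CPM in NK-like cells. As a share of GTPase and enzyme UMIs this was 3.96 and 4.15% in T-like, 4.21 and 3.86% in B-like, 1.61 and 2.64% in monocyte-like and 2.89 and 3.31% in NK-like cells. The T-like and B-like intervals overlapped, from 3.7% to 4.24% and from 3.86% to 4.59% in the mutant library, and both types lay above the 2 others in both libraries. In the wildtype library the intervals of B-like and NK-like cells overlapped.

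**Figure D2:**
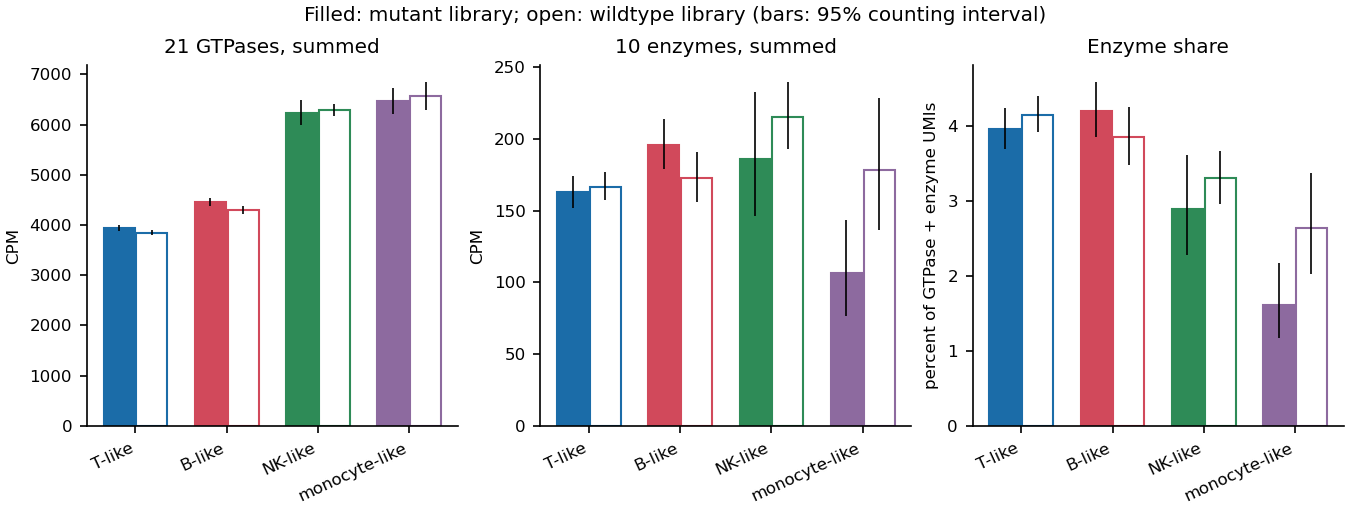
Summed level of the 21 GTPases (CPM), summed level of the 10 enzymes (CPM) and enzyme share (percent of GTPase and enzyme UMIs) by cell type, with filled bars for the mutant library, open bars for the wildtype library and lines for the 95% counting interval. GTPase sums are highest in NK-like and monocyte-like cells, where the enzyme shares are lowest.

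The shared transferase subunit Fnta was at 29.4 and 27.2 CPM in T-like, 48 and 29.7 in B-like, 20.2 and 28.8 in monocyte-like and 19.8 and 33.7 CPM in NK-like cells. Fntb, the farnesyltransferase beta subunit, was at 15.2 and 13.4 CPM in T-like, 5.08 and 5.03 CPM in B-like and 4.95 and 3.82 CPM in NK-like cells, and had 0 UMIs in monocyte-like cells of either library. A count of 0 allows up to 7.58 and 8.63 CPM (3 counts of the total), both under the T-like level of the same library. Free RNA held Fntb at 22.8 and 8.68 CPM, in the mutant library above the T-like level. Pggt1b, the geranylgeranyl transferase I beta subunit, was at 6.32 and 10.2 CPM in T-like, 10.2 and 12.8 in B-like, 5.05 and 17.3 in monocyte-like and 9.91 and 12.1 CPM in NK-like cells, where the monocyte-like values rest on 2 and 6 UMIs.

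The Rab transferase subunits had similar levels to each other, with Rabggta at 19.9 and 21.1 CPM and Rabggtb at 21.7 and 24.9 CPM in T-like cells, and Rabggta at 17.6 and 21 and Rabggtb at 26.9 and 29.7 CPM in B-like cells. In monocyte-like cells Rabggtb was at 20.2 and 28.8 CPM. The escort protein Chm was at 11.8 and 11.1 CPM in T-like cells, and its relative Chml gave 5 and 5 UMIs there, 10 and 1 in B-like, 1 and 2 in monocyte-like and 0 and 2 in NK-like cells. Opn3 is listed on the same strand over its 3' end, so counts of Chml are uncertain.

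The protease genes were the most abundant enzymes of NK-like cells. Zmpste24 was at 47.1 and 55.4 CPM and Rce1 at 44.6 and 45.2 CPM there, against 25.3 and 25.1 and 26.3 and 30 CPM in T-like cells. In B-like cells Zmpste24 was at 33.6 and 24.7 CPM and in monocyte-like cells Rce1 at 20.2 and 34.5 CPM. The methyltransferase Icmt was scarce throughout, at 5.72 and 2.97 CPM in T-like, 7.42 and 7.77 in B-like, 2.53 and 0 in monocyte-like and 7.43 and 5.09 CPM in NK-like cells. Of 10 enzymes 0 were highest in monocyte-like cells in both libraries, 2 in NK-like and 1 each in B-like and T-like cells. For the other 6 the highest type differed between the libraries. Pggt1b, Chm and Chml were highest in monocyte-like cells in the wildtype library only. None of the 10 was measured in monocyte-like cells and no share of all genes is given, so the 0 sets that type apart from no other.

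Set against its own substrates, each transferase had a different ratio. Nras, Hras and Rheb together gave 12.5 (9.91 to 16) and 13.7 (11 to 17.1) UMIs per Fntb UMI in T-like cells and 40.6 (23.5 to 76.8) and 39.1 (21.6 to 78.9) in B-like cells. The 10 geranylgeranylated members outside the Rab family gave 486 (344 to 710.2) and 293 (231 to 376) UMIs per Pggt1b UMI in T-like cells. The 6 Rab members gave 10.6 (9.2 to 12.3) and 9.64 (8.57 to 10.9) UMIs per UMI of the Rab transferase pair in T-like cells and 18.8 (11.4 to 33.3) and 17.7 (13.8 to 23.1) in NK-like cells. Farnesylated substrates thus had fewer UMIs per Fntb UMI in T-like than in B-like cells in both libraries, with intervals that did not overlap, though their own summed level was close, at 190.1 and 182 CPM against 206 and 197 CPM.

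Between the libraries the members differed little. A gene was measured in a type with at least 50 UMIs over both libraries, and past the fold when the mutant to wildtype ratio was at least 1.5, or at most its inverse, with an interval leaving out 1. Of the 35 members 33 were measured in T-like, 30 in B-like, 17 in monocyte-like and 26 in NK-like cells. The median log2 ratio of the measured members was 0.03 in T-like, 0.01 in B-like, 0.00 in monocyte-like and -0.03 in NK-like cells, beside 0.01, 0.01, -0.04 and -0.03 for all measured genes.

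**Figure D3:**
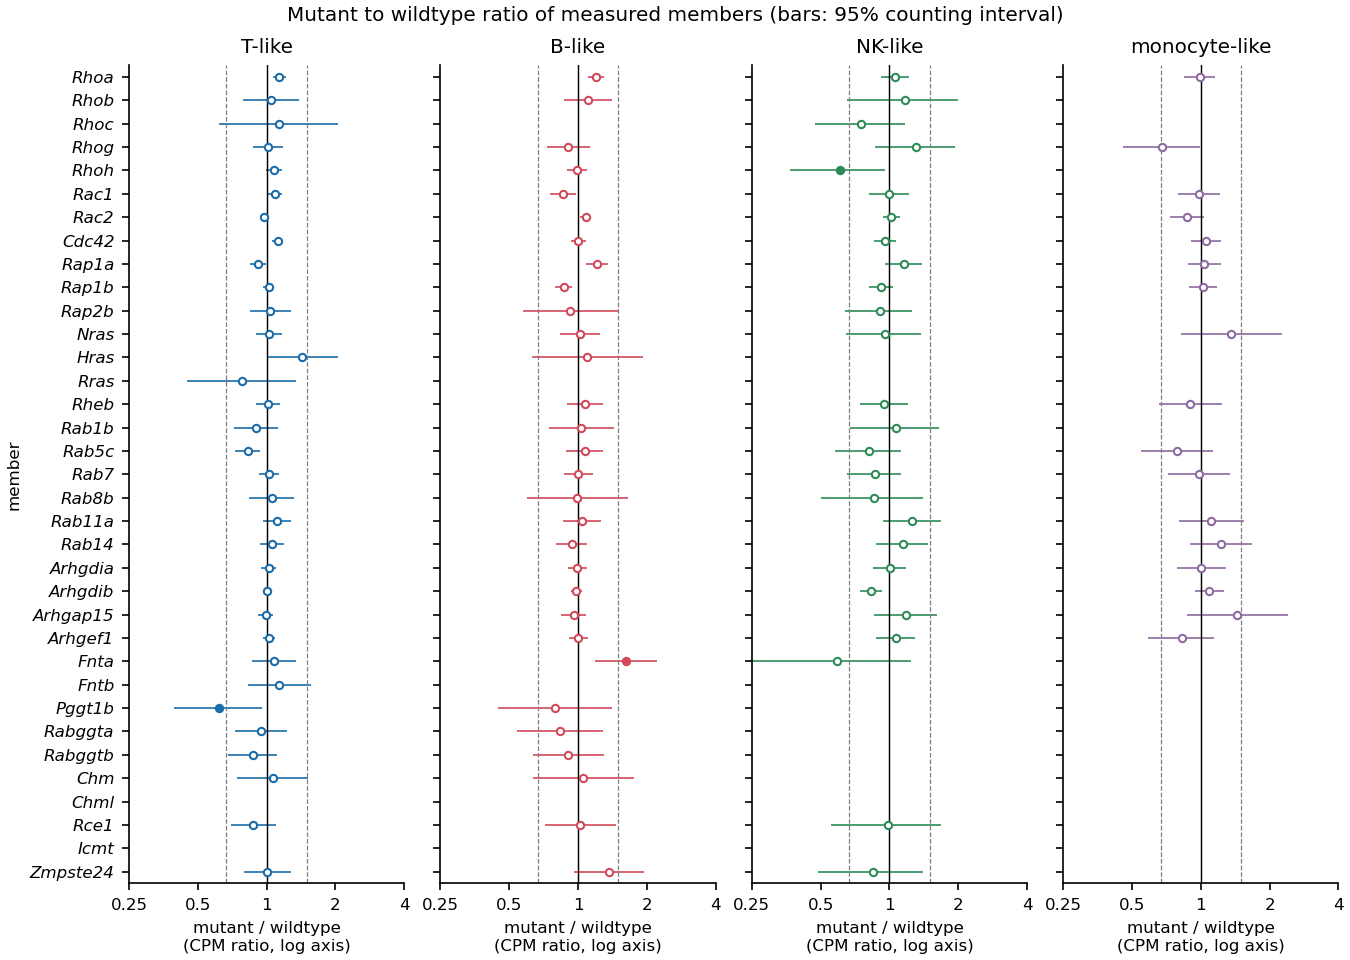
Mutant to wildtype ratio of CPM (log axis) of each measured member in the 4 cell types, with bars for the 95% counting interval, a solid line at 1 and dashed lines at the 1.5-fold limits. Filled points mark the 3 members past the fold: Pggt1b in T-like, Fnta in B-like and Rhoh in NK-like cells.

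In T-like cells 0 members were past the fold upward, where 1.84% of 8389 genes were, and 1 was past it downward, where 1.70% were. This was Pggt1b, with 32 UMIs (6.32 CPM) in the mutant and 69 UMIs (10.2 CPM) in the wildtype library, a ratio of 0.617 (0.392 to 0.951). Free RNA held it at 2.53 and 15.2 CPM, from 1 and 7 UMIs. Subtracting free RNA gave 0.697 (0.435 to 1.1), and thinning cells to 800 UMIs gave 0.71 (0.305 to 1.57). The ratio was 0.722 (0.388 to 1.3) in cells with a CD8 UMI and 0.516 (0.253 to 0.998), from 45 UMIs, in the others, so that the call was lost in each of these settings. Icmt, with 29 and 20 UMIs just under the minimum, had a ratio of 1.93 (1.05 to 3.6).

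In B-like cells 1 member was past the fold upward, where 2.48% of 6808 genes were, and 0 downward, where 1.75% were. Fnta had 123 UMIs (48 CPM) in the mutant and 65 UMIs (29.7 CPM) in the wildtype library, a ratio of 1.62 (1.19 to 2.22). In free RNA Fnta was at 50.6 and 28.2 CPM, from 20 and 13 UMIs, with a ratio interval of 0.848 to 3.92 that held 1. With free RNA subtracted the B-like ratio was 1.57 (1.11 to 2.25). At a minimum of 1500 UMIs per cell it was 1.496 (1.05 to 2.15) and thinned to 800 UMIs 1.45 (0.896 to 2.38), both short of the call. In T-like cells Fnta had a ratio of 1.08 (0.866 to 1.35).

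In NK-like cells 0 members were past the fold upward, where 2.16% of 4586 genes were, and 1 downward, where 3.18% were. Rhoh had 22 UMIs (54.5 CPM) in the mutant and 141 UMIs (89.7 CPM) in the wildtype library, a ratio of 0.607 (0.369 to 0.956). With free RNA subtracted it was 0.462 (0.19 to 0.97), still past the fold. The subtraction left 72.9 of the 163 Rhoh UMIs of both libraries. The call was lost without cells with a platelet marker UMI, at 0.60 (0.338 to 1.0), and at a minimum of 1500 UMIs per cell, at 0.634 (0.377 to 1.02). In monocyte-like cells 0 of 17 measured members were past the fold in either direction, where 4.35% of 2159 genes were past it upward and 4.54% downward. Rhog, at 126 and 187 CPM and a ratio of 0.676 (0.458 to 0.993), lay just short of the limit.

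Smaller differences were resolved where counts were high, though the part of platelet or red cell RNA in them was not tested. The interval left out 1 for 7 of 33 members in T-like cells (4 above and 3 below 1), beside 14% of all measured genes, and for 6 of 30 in B-like cells (4 above and 2 below), beside 13%. In NK-like cells it did for 2 of 26, beside 10.6%, and in monocyte-like cells for 1 of 17, beside 16.3%. Rhoa was above 1 in both lymphocyte types with the most cells, with ratios of 1.2 (1.11 to 1.3) in B-like and 1.14 (1.07 to 1.21) in T-like cells, and had 0.989 (0.847 to 1.16) in monocyte-like and 1.06 (0.914 to 1.22) in NK-like cells. Cdc42 had 1.0 (0.935 to 1.08) in B-like and 1.12 (1.06 to 1.18) in T-like cells. Rab5c was lower in T-like cells, with a ratio of 0.825 (0.727 to 0.936), and Rap1b was lower in B-like cells, with 0.864 (0.79 to 0.946). Arhgdib was lower in NK-like cells, with 0.832 (0.746 to 0.925). In free RNA Arhgdib was lower too, at 807 and 1096 CPM and a ratio of 0.736 (0.637 to 0.848). Summed over the 21 GTPases the ratios were 1.04 (1.01 to 1.06) in B-like, 1.02 (1.01 to 1.04) in T-like, 0.985 (0.931 to 1.04) in monocyte-like and 0.991 (0.948 to 1.04) in NK-like cells.

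**Figure D4:**
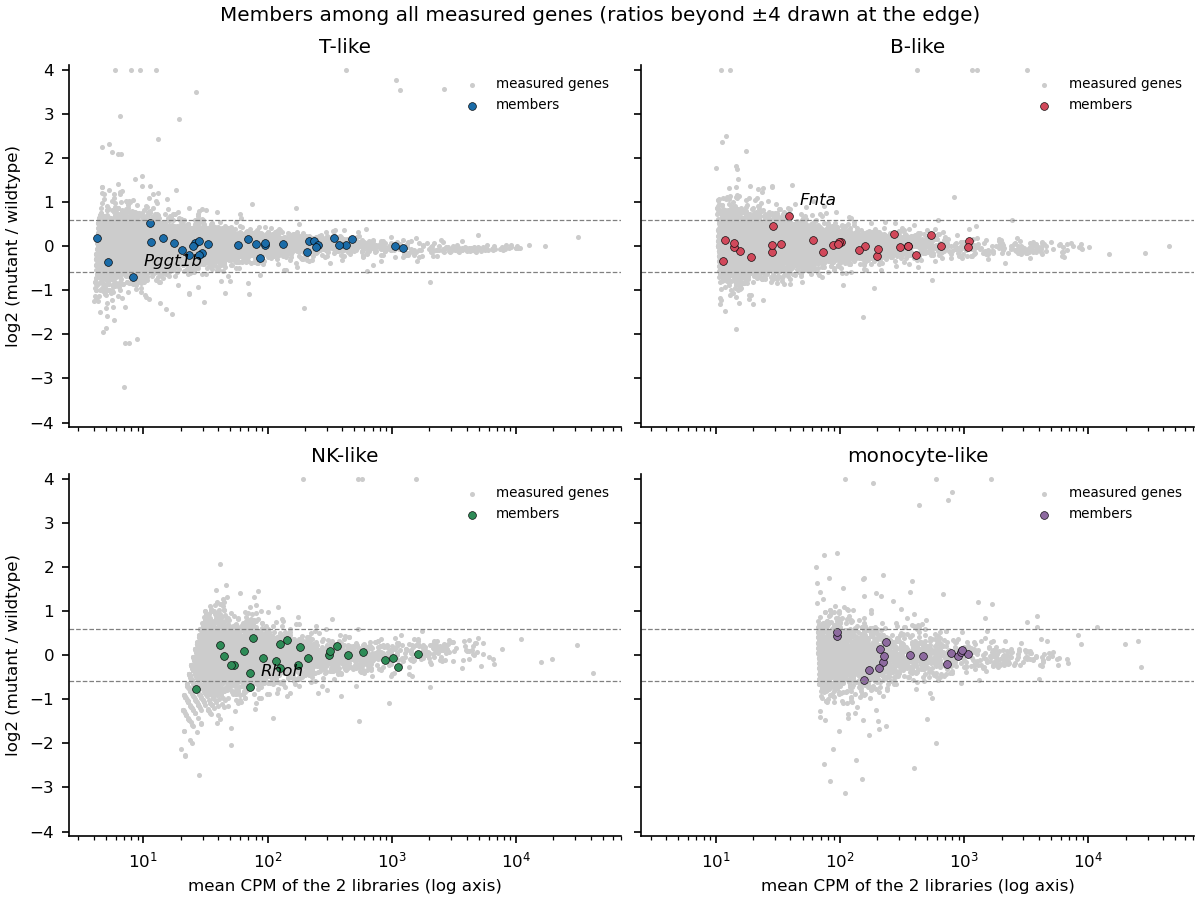
Log2 ratio of mutant to wildtype CPM against the mean CPM of the 2 libraries (log axis) for all measured genes (grey) and for the measured members (coloured) in the 4 cell types, with dashed lines at the 1.5-fold limits. Members lie within the grey band, and Pggt1b, Fnta and Rhoh are the named ones past the limits.

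The enzyme sum of monocyte-like cells was lower in the mutant library, with 42 against 62 UMIs and a ratio of 0.595 (0.393 to 0.895). Without cells carrying neutrophil, platelet or dendritic markers it was 0.572 (0.321 to 0.991), from 21 and 41 UMIs. None of the 10 enzymes reached the minimum of 50 UMIs in these cells, so no single gene carries a value there. Of single measured genes in monocyte-like cells, 16.3% had an interval leaving out 1. The libraries also differed in the mix of more classical and more non-classical cells given below, whose part in the sum was not tested. In the other types the enzyme sums had ratios of 1.13 (0.989 to 1.3) in B-like, 0.976 (0.891 to 1.07) in T-like and 0.864 (0.663 to 1.11) in NK-like cells.

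The monocyte-like cells were split by classical against non-classical marker UMIs into 55 and 42 more classical and 56 and 73 more non-classical cells, with 23 and 25 cells near the split. Of 17 measured members, 4 were at least 1.5-fold higher in the non-classical cells in both libraries, where 10.3% of 2097 genes were, and 0 were so in the classical cells, where 8.97% were. Rap1b had 1402 and 1586 CPM in non-classical and 875 and 555 CPM in classical cells. Its mutant to wildtype ratio was 1.58 (1.23 to 2.03) in classical cells, past the fold, and 0.885 (0.731 to 1.07) in non-classical cells. No share of all genes past the fold in classical cells stands beside this ratio. The classical cells held platelet markers at 1615 and 769 CPM and neutrophil markers at 575 and 2156 CPM. The part of such RNA in the ratio was not tested. In non-classical against classical cells Rhoa had 1304 and 1114 against 641 and 734 CPM. Rap1a had 1057 and 1038 against 653 and 509 CPM, and Arhgef1 275 and 321 against 132 and 145 CPM.

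**Figure D5:**
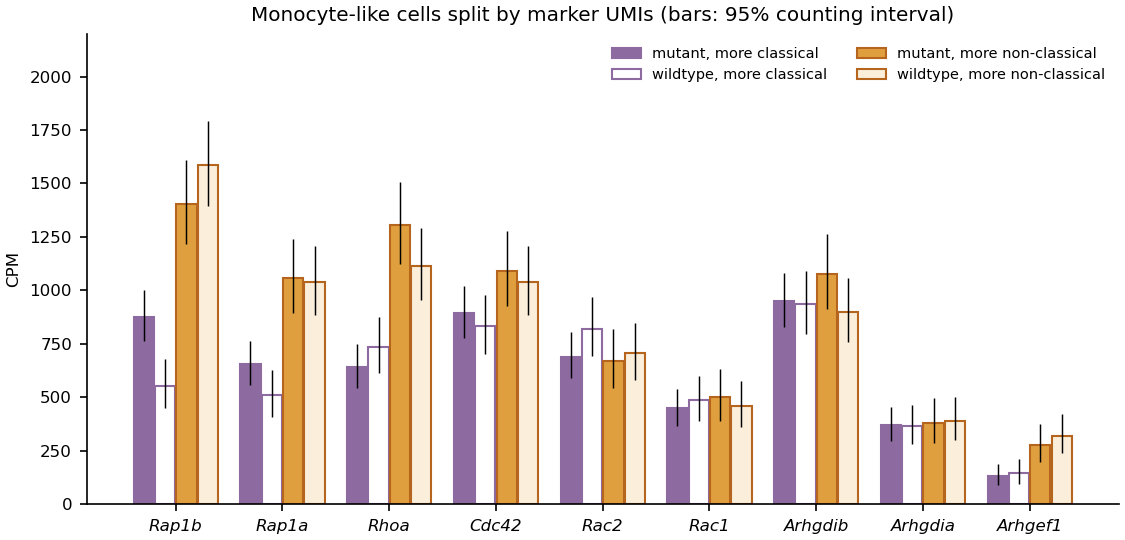
Level (CPM) of GTPases and regulators of monocyte-like cells in more classical (purple) and more non-classical (orange) cells, filled for the mutant and pale for the wildtype library, with lines for the 95% counting interval. Rap1b, Rap1a, Rhoa and Arhgef1 are higher in the non-classical cells of both libraries, and Rac2 and Rac1 are not.

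Markers of other cells were uneven over this split, and only 20 of 55 and 14 of 42 classical cells, against 48 of 56 and 72 of 73 non-classical cells, were free of them. Among cells free of them the non-classical to classical ratio of Arhgef1 was 1.82 (0.944 to 3.73) and 2.05 (0.9995 to 4.75), that of Rhoa 1.8 and 1.41, and that of Rap1b 1.4 and 2.13. For Rap1a the ratio was 1.11 and 1.28. The intervals of Arhgef1 and Rap1a held 1 in both libraries, and of the 4 genes Arhgef1 alone kept a ratio of at least 1.5 in both. Median depth differed over the split too, at 3884 and 4050.5 UMIs in classical and 2192 and 1952 UMIs in non-classical cells.

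T-like cells were split by whether a Cd8a or Cd8b1 UMI was seen, which gave 980 and 1396 cells with and 1278 and 1372 without one. Rap1b was lower with a CD8 UMI, at 397 and 384 against 466 and 473 CPM, with ratios of 0.852 (0.782 to 0.927) and 0.813 (0.754 to 0.875). Arhgap15 was lower too, at 218 and 217 against 273 and 289 CPM. Rhoh was slightly higher, at 241 and 217 against 206 and 194 CPM, with ratios of 1.17 and 1.12 and intervals that left out 1. A cell without a CD8 UMI may still be a CD8 cell whose transcript was not captured. Depth per cell was higher with a CD8 UMI. Cells with one held 2493495 and 3799791 UMIs in all, and the others 2572832 and 2937344 UMIs. No share of all genes differing over this split stands beside these members.

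The genes around the members in the pathway were called by the same rule. Of all measured genes 1.84% were past the fold upward and 1.70% downward in T-like cells, and 2.48% and 1.75% in B-like cells. These shares were 2.16% and 3.18% in NK-like and 4.35% and 4.54% in monocyte-like cells. Of 13 isoprenoid supply genes 12 were measured in T-like cells and 0 were past the fold. In monocyte-like cells 1 was measured, Fdps, the synthase of farnesyl diphosphate, and it was past the fold downward, at 93.5 and 155 CPM and a ratio of 0.602 (0.385 to 0.932). Of 38 other prenylated GTPases 31 were measured in T-like cells, where Rab27a of granule release was higher (24.5 and 15.9 CPM) and Rab19 lower (9.47 and 16 CPM). In B-like cells 0 of 22 measured were past the fold. In NK-like cells 2 of 22 measured were lower, Rac3 (39.6 and 72.6 CPM), another Rac gene, and Rab37 (39.6 and 82.7 CPM). With the cells carrying markers of other cells left out, 0 pathway genes were past the fold in monocyte-like cells. Of 28 exchange factors and GTPase activating proteins, Dock10, an exchange factor, was lower in B-like cells, at 82 and 126 CPM and a ratio of 0.65 (0.541 to 0.781). Of 4 prenyl protein chaperones 0 were past the fold in any type.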

How the data were processed

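Deposited values were raw UMI counts per gene and barcode from 10x Chromium 3' v2 libraries. The authors made them with Cell Ranger 2.1.1 on mm10, per the submitters' processing notes. Each table lists 27998 genes and 737280 barcodes, so cells were called here: at least 800 UMIs, at least 200 genes and at most 10% mitochondrial UMIs. How reads shared by near-identical genes were counted is not given in the sources used here.

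A cell took the type whose marker UMI sum was highest, if that sum reached 3 and each other sum was at most 1 in 3 of it. UMIs were summed per type and library and scaled to CPM. Intervals are exact (Poisson for a level, conditional Clopper-Pearson for a ratio, Clopper-Pearson for a share) at 95%. The ratio interval was run on simulated Poisson counts, the model it assumes. That simulation held no variation between cells or mice, so it does not show coverage under such variation. Free RNA is the sum of barcodes with at most 20 UMIs. For list medians 0.5 UMI was added to each sum. Doublets were scored with Scrublet in scanpy 1.11.5 and removed in an alternative only: 63 mutant and 139 wildtype cells scored above 0.2. Python 3.11.15, numpy 2.4.6, scipy 1.17.1 and matplotlib 3.10.9 were used.

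Values are given in full for the 5 GTPases of highest CPM in each type, every member leading in a type or past the fold, and the 3 enzymes of highest and lowest CPM in each type. Others are given by range or in part. From the pathway lists genes past the fold are named, and Mvk, apart from results on some items that are not reported here. Members, lists and rules were chosen with earlier results of these data known. Promoters were found for 30 of 35 members. At the last 500 bases 5 members have a listed gene on the opposite strand and 1, Chml, on the same strand. Alternatives to the cell, type, scaling, free RNA, fold and minimum choices numbered 17, and 2 more were added after seeing the data.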

Additional observations from a re-analysis of the deposited data

Results flagged for a closer look

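Rac1 and Rap1a had library ratios on opposite sides of 1 in T-like and B-like cells, each with an interval leaving out 1. The mutant to wildtype ratio of Rac1 was 1.09 (1.01 to 1.17) in T-like cells, from 248 and 228 CPM, and 0.86 (0.755 to 0.979) in B-like cells, from 184 and 214 CPM. Rap1a showed the reverse, with 1.21 (1.08 to 1.35) in B-like cells, from 300.0 and 249 CPM, and 0.914 (0.843 to 0.992) in T-like cells, from 198 and 217 CPM. These differences between cell types were not tested, since each genotype had 1 library, and none of the 4 ratios reached the 1.5-fold limit. In free RNA Rac1 was at 212 and 224 CPM and Rap1a at 199.8 and 274 CPM.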

How the results depend on the processing

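No paired analysis was possible because each genotype had 1 library, and no replicate could be left out. The called gene and its direction could change under the alternatives even where the count did not. The first figures give the count of members past the fold between libraries. In T-like cells Pggt1b was replaced by Rce1 in thinned cells and by Hras with free RNA subtracted and in cells with a CD8 UMI, at an equal count. Pggt1b was lower in the mutant library, whereas Hras was higher in cells with a CD8 UMI, at a ratio of 1.86 (1.09 to 3.22). The T-like count went from 1 to 0 without cells with platelet or red cell RNA, under a stricter marker rule and in cells without a CD8 UMI. It went to 2 at a lower fold limit, a minimum of 20 UMIs or no minimum. In B-like cells it went from 1 to 0 at 1500 UMIs per cell, in cells thinned to 800 UMIs and under the stricter rule, to 2 with the mean of per-cell CPM or no minimum, and to 3 without platelet or red cell RNA. In NK-like cells it went from 1 to 0 at 1500 UMIs, thinned, under the stricter rule and without cells with a platelet marker UMI, and Arhgdib replaced Rhoh without platelet or red cell RNA. In monocyte-like cells it went from 0 to 1 with the mean of per-cell CPM, a lower fold limit, a minimum of 20 or none, and in classical or non-classical cells alone, and to 2 without platelet or red cell RNA. In classical cells the member was Rap1b, upward at 1.58 (1.23 to 2.03), and in non-classical cells Rhog, downward at 0.574 (0.322 to 0.994).

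The number of leading members in T-like cells went from 1 to 0 when thinned and without platelet or red cell RNA. In NK-like cells it went from 2 to 0 under the stricter rule and to 1 without platelet marker cells. In monocyte-like cells it went from 1 to 0 without doublet scores above 0.2, with totals lacking ribosomal, mitochondrial and haemoglobin genes, with free RNA subtracted and in classical cells, and to 2 without platelet or red cell RNA.

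Pathway genes past the fold in T-like cells (2) became 1 thinned or under the stricter rule and 4 with free RNA subtracted. In B-like cells (1) they became 0 thinned or with per-cell means, 2 at 1500 UMIs or without platelet or red cell RNA, and 3 under the stricter rule or with free RNA subtracted. In NK-like cells (3) they became 0 under the stricter rule or without platelet or red cell RNA and 5 with free RNA subtracted. In monocyte-like cells (2) they became 1 at 1500 UMIs or centred on the median ratio, 0 thinned, under the stricter rule, without platelet or red cell RNA, without platelet marker cells or without cells of other markers, 6 at a minimum of 20 UMIs and 9 with none.

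The enzyme share counted over the 5 transferase subunits was 2.30% and 2.45% in T-like, 2.36% and 2.23% in B-like, 0.814% and 1.42% in monocyte-like and 1.18% and 1.44% in NK-like cells. Over all 10 enzymes and without platelet or red cell RNA, the share was 5.78% in mutant B-like (4.21% with these cells), 1.57% in mutant NK-like (2.89%) and 0% in mutant monocyte-like cells (1.61%). In wildtype B-like cells the share over 10 enzymes, 3.86%, was 4.52% thinned and 3.26% under the stricter rule, which gave 1.93% in mutant NK-like cells. The cause of these changes was not tested, but leaving out platelet and red cell RNA kept only 257 T-like, 219 B-like, 8 monocyte-like and 15 NK-like mutant cells, and thinning kept 92800 UMIs of mutant monocyte-like cells. The settings on platelet marker cells alone and on cells of other markers were added after seeing the data. Depth limits the enzymes most, none of which reached 50 UMIs in monocyte-like cells.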

Other observations

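Cells without a type, 9.0% and 7.46% of all, also had Rac2 as their most abundant GTPase transcript. It stood at 899 and 1209 CPM there, Cdc42 at 409 and 601 CPM, Rap1b at 482 and 573 CPM and Rhoa at 304 and 389 CPM. Rhoc was at 12.9 and 14.8 CPM and Fntb at 6.95 and 14.8 CPM. These cells carry markers of more than one type, or too few of any, and entered no comparison.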
